A study of Rattus norvegicus with 16 samples.

Results

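The 10 genes described here encode 5 alpha-tubulins (Tuba1a, Tuba1b, Tuba1c, Tuba4a and Tuba8), 4 beta-tubulins (Tubb2a, Tubb2b, Tubb5 and Tubb6) and the microtubule-binding protein Map4. They were chosen by name, with earlier results of these data known, because microtubules are held to stiffen heart muscle cells under pressure load. All 10 were among the 17245 rat genes with a probe set of exactly 1 symbol. Each had exactly 1 probe set, and no member's probe set was shared with another symbol. RNA came from the wall of the right ventricle of male Wistar rats of 160 to 180 g. The labels describe sham operation and banding of the pulmonary artery, which loads the right ventricle with pressure, without saying which sample had which. The 16 samples, each on 1 array, fell into 7 labelled CON, which the design text calls controls, 5 labelled RVF+ and 4 labelled RVF. The labels do not spell out RVF+ and RVF or give the time after surgery, and the series' title concerns clinical signs of failure of the right ventricle under long-lasting pressure load. They also do not state that each sample was a separate animal, and the p-values here reflect nothing beyond the scatter among these samples.

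Microtubules are hollow polymers of alpha- and beta-tubulin pairs, and each tubulin comes in several isotypes from separate genes. In heart muscle cells they carry cargo, position organelles and resist shortening and stretch, above all where the alpha-tubulin tail has lost its last tyrosine and the polymer is tied to desmin. MAP4 is the main microtubule-associated protein outside the nervous system, binds along the polymer and stabilises it, and dense MAP4-decorated networks are known from pressure-loaded right ventricles.

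In the RVF+ group, Tuba1c, Tubb2b, Tubb6 and Map4 were higher than in CON and Tuba8 was lower. Tuba1c rose 2.16-fold, Tubb6 rose 2.13-fold, and Tuba8 was 2.27-fold lower; leaving out 1 array that stood apart, RVF+ 8, gave 1.60-fold, 1.59-fold and 2.02-fold. In the RVF group, Tuba8 was again lower, by 2-fold, and Map4 was 1.27-fold higher. Tuba1c and Tubb6 averaged 1.74-fold and 1.65-fold above CON in RVF. At the threshold given below, these RVF rises were not called with all arrays in the fit but were called without RVF+ 8. Tuba4a and Tuba8 were the only 2 of the 10 members whose mean lay below CON in both comparisons. A gene was called changed at a Benjamini-Hochberg adjusted p below 0.05 in limma's moderated test over all 17245 genes on log2 intensity. At that threshold 5 of 10 members were called between RVF+ and CON, where 27.7% of all genes were called, 14.1% higher and 13.6% lower. Between RVF and CON 2 of 10 were called, against 17.1% of all genes, 8.86% higher and 8.29% lower. Brighter genes were called more often. A fit of only the genes at or above the median level called 3924 genes in RVF+ and 2664 in RVF, with 7 and 2 members. Of all 17245 genes 4771 and 2957 were called. The median difference of the 10 members was 0.31 on the log2 scale for RVF+ and 0.38 for RVF, against -0.01 for all genes in both comparisons. Without RVF+ 8 the RVF+ median of the members was 0.225, against -0.005 for all genes. Both comparisons use the same 7 CON arrays. Because the members were chosen with earlier results of these data known, their counts beside these shares are descriptions, not tests.

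RVF+ 8 bears on most values below. Its root mean square distance from the CON mean over all genes was 0.711 in log2 units. The rest of the RVF+ and RVF arrays lay at 0.326 to 0.448, and each CON array at 0.183 to 0.248 from the remaining CON arrays. Correlations between arrays of 1 group ran from 0.962 to 0.991 in RVF+, from 0.989 to 0.994 in CON and from 0.991 to 0.993 in RVF. All 3 groups share 1 estimate of each gene's spread, so an array far from its group widens the errors of the other comparison too. The members and the list counts are therefore also given for the 15 arrays without RVF+ 8 where that moves a call or a value, and so are the list genes named. Without it, RVF+ against CON called 24.9% of all genes and RVF against CON 24.6%. The members called were then 4 higher and 2 lower in RVF+ (12.9% and 12% of all genes), and 6 higher and 1 lower in RVF (13.4% and 11.2%).

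Tissue markers were read first. Ventricular heart muscle markers were bright in the tissue, with a mean log2 intensity over all arrays of 12.71 for the light chain Myl3, 12.59 for phospholamban (Pln) and 12.39 for troponin T (Tnnt2). The summed intensity of 14 ventricular cardiomyocyte markers was 54500 to 57100 for CON, 50500 to 53100 for RVF and 47400 to 52300 in the RVF+ arrays other than RVF+ 8, which had 33700. Macrophage markers summed to 1380 to 1950 in CON, 2400 to 3100 in RVF, 2550 to 3800 in the other RVF+ arrays and 7500 in RVF+ 8. Genes of dividing cells, whose spindles are built from tubulin, summed to 240 to 320 in CON, 550 to 612 in RVF, 354 to 761 in the other RVF+ arrays and 2520 in RVF+ 8. In these 3 sums no RVF+ or RVF array fell within the CON range, and RVF+ 8 was the farthest from it. Their part in the tubulin results was not tested, and in pieces of whole tissue fewer cells of a type and less RNA per cell cannot be told apart.

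**Figure D1:**
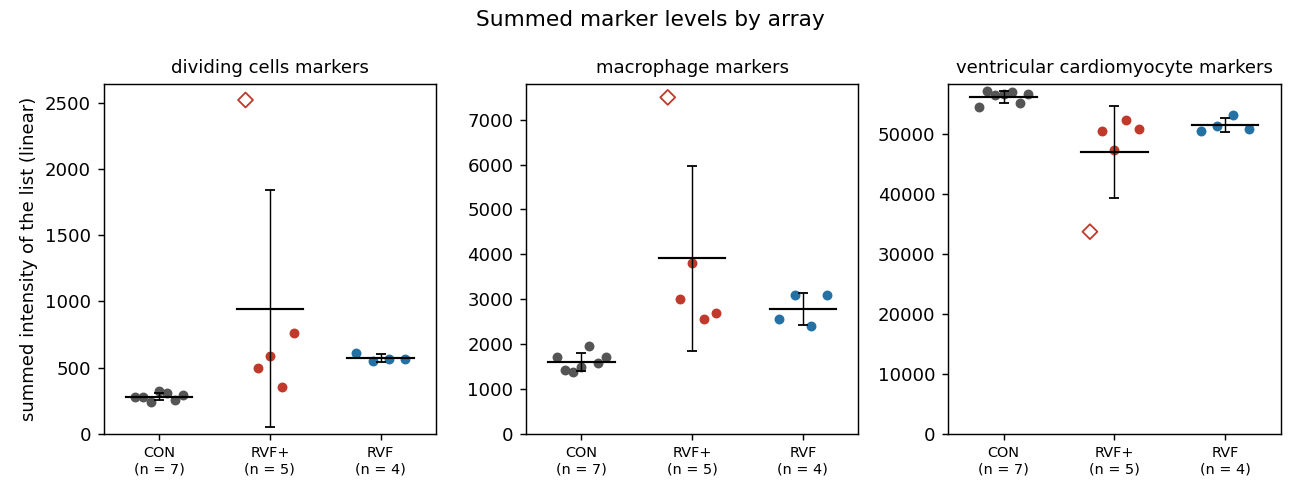
Summed intensity (linear scale from 0) of marker lists in each of the 16 arrays, by group, with RVF+ 8 drawn as an open diamond and a line at each group's mean. RVF+ 8 has the highest sum for dividing cells (2520) and macrophages (7500) and the lowest for ventricular cardiomyocytes (33700).

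Among the alpha-tubulins, Tuba1c, a widely expressed isotype, had the largest rise. Tuba8 was the alpha-tubulin with the largest fall, and Tubb2b was a beta-tubulin called in RVF+, though Tubb6 rose more. The sequences upstream of the Tuba1c, Tuba8 and Tubb2b starts are shown. Each is the 250 bases before the RefSeq gene start in GRCr8 on the + strand, written 5′ to 3′. Capitals mark the motifs searched on both strands: the CCAAT box, the GC box GGGCGG, the TATA box TATAAA and the E-box CACGTG.
Tuba1c (chr7:132070734-132070983): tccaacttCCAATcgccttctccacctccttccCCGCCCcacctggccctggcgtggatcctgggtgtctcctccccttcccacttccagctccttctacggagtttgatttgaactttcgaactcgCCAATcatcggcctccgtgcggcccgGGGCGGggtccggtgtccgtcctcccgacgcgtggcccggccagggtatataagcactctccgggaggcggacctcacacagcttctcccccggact
Tuba8 (chr4:156112022-156112271): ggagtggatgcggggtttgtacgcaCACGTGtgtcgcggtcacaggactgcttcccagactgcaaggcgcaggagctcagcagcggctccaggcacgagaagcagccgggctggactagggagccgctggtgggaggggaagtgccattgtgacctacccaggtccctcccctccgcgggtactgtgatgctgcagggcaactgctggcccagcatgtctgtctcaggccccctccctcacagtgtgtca
Tubb2b (chr17:30952836-30953085): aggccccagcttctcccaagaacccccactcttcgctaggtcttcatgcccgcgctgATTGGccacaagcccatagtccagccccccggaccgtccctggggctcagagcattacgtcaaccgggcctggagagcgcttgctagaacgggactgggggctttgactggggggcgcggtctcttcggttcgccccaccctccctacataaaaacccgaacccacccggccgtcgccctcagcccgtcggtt
The Tuba1c window held 2 CCAAT and 2 GGGCGG matches, the Tubb2b window 1 CCAAT match and the Tuba8 window only 1 CACGTG match. Windows were in the RefSeq table for 9 of the 10 members. CCAAT lay in 6 of these 9 (Tuba1a, Tuba1b, Tuba1c, Tubb2b, Tubb5 and Tubb6), against 34% of all 33469 windows. GGGCGG lay in 7 of 9 against 30.5%, TATAAA in 1 (Tubb2a) against 12.9%, and CACGTG in 2 (Tuba8 and Tubb5) against 5.59%. CATTCC, found in 12.1% of all windows, and the CArG box, found in 1.5%, had no match in the 9. No 2 of these motifs share letters in the printed windows, and a match is a description of the letters, not a binding site.

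For Tuba1c, the CON arrays ranged from 7.35 to 7.89 with a median of 7.65 (log2 intensity). The 5 RVF+ arrays read 10.49, 8.38, 8.31, 7.99 and 8.62, and the 4 RVF arrays read 8.52, 8.44, 8.45 and 8.37. Every RVF+ and RVF array lay above every CON array. CON averaged 7.64 ± 0.216 (SD, n = 7), RVF+ averaged 8.76 ± 0.994 (SD, n = 5) and RVF averaged 8.45 ± 0.0607 (SD, n = 4). The difference from CON was 1.11 ± 0.29 (SE; 95% interval 0.50 to 1.73) in RVF+, with a limma adjusted p of 0.00839. Without RVF+ 8 it was 0.68 ± 0.12, adjusted p = 0.000352, a 1.60-fold rise, so the call held while the size depended on that array. In RVF the difference was 0.80 ± 0.31 with an adjusted p of 0.0892 over 16 arrays and, with the same means, 0.80 ± 0.12 and 7.44e-05 without RVF+ 8.

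Tuba8, an isotype known from heart and skeletal muscle, went the other way. CON arrays ranged from 9.10 to 9.46 with a median of 9.25. RVF+ arrays read 7.39, 8.56, 7.85, 8.09 and 8.53, and RVF arrays read 7.89, 8.39, 8.35 and 8.46. All 9 RVF+ and RVF arrays were below all 7 CON arrays. CON averaged 9.27 ± 0.118 (SD, n = 7), RVF+ averaged 8.08 ± 0.489 (SD, n = 5) and RVF averaged 8.27 ± 0.258 (SD, n = 4). Tuba8 fell by 1.18 ± 0.16 (SE) on the log2 scale in RVF+, limma adjusted p = 4.87e-05, and by 1.0 ± 0.18 in RVF, adjusted p = 0.000696. Leaving out RVF+ 8, which had the lowest reading, gave a 2.02-fold lower level in RVF+ with an adjusted p of 2.47e-05. Tuba8 was the member with the smallest adjusted p in both comparisons.

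Tuba4a encodes an alpha-tubulin that lacks the terminal tyrosine in its gene sequence. CON arrays lay between 10.81 and 11.38 with a median of 11.05, and RVF arrays read 11.24, 10.89, 11.03 and 11.01, within the CON range. RVF+ arrays read 11.20, 10.58, 10.35, 10.01 and 11.11, so 3 of the 5 lay below every CON array. The difference in RVF+ was -0.44 ± 0.17 (SE; 95% interval -0.79 to -0.09) and was not called, with a limma adjusted p of 0.0599. It was called without RVF+ 8, at -0.58 ± 0.15 and an adjusted p of 0.00992. In RVF the difference was -0.05 ± 0.18, adjusted p = 0.897.

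Tuba1a and Tuba1b, neighbouring genes for an isotype best known from developing neurons and for one made in most cells, gave smaller differences. Tuba1a read 9.10 to 9.81 in CON with a median of 9.42. It read 10.40, 9.72, 9.60, 9.21 and 9.94 in RVF+ and 10.05, 9.92, 9.86 and 9.72 in RVF. Both groups overlapped CON. Neither difference was called, at 0.34 ± 0.16 (SE, limma adjusted p = 0.131) in RVF+ and 0.45 ± 0.17 (adjusted p = 0.0832) in RVF. Without RVF+ 8 the Tuba1a difference was 0.18 in RVF+ (adjusted p = 0.383) and had an adjusted p of 0.0222 in RVF. Tuba1b read 7.96 to 8.31 in CON with a median of 8.10, against 8.82, 8.35, 8.17, 8.03 and 8.48 in RVF+ and 8.46, 8.24, 8.09 and 8.43 in RVF. The Tuba1b groups overlapped as well, and the differences were 0.26 ± 0.11 (adjusted p = 0.0999) and 0.20 ± 0.12 (adjusted p = 0.3). Leaving out RVF+ 8 gave a Tuba1b difference of 0.15 in RVF+ (adjusted p = 0.302). Without RVF+ 11, the lowest RVF+ array for both, 29% of all genes were called in RVF+, and the difference was called for Tuba1a (adjusted p = 0.0215) and Tuba1b (adjusted p = 0.0262).

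**Figure D2:**
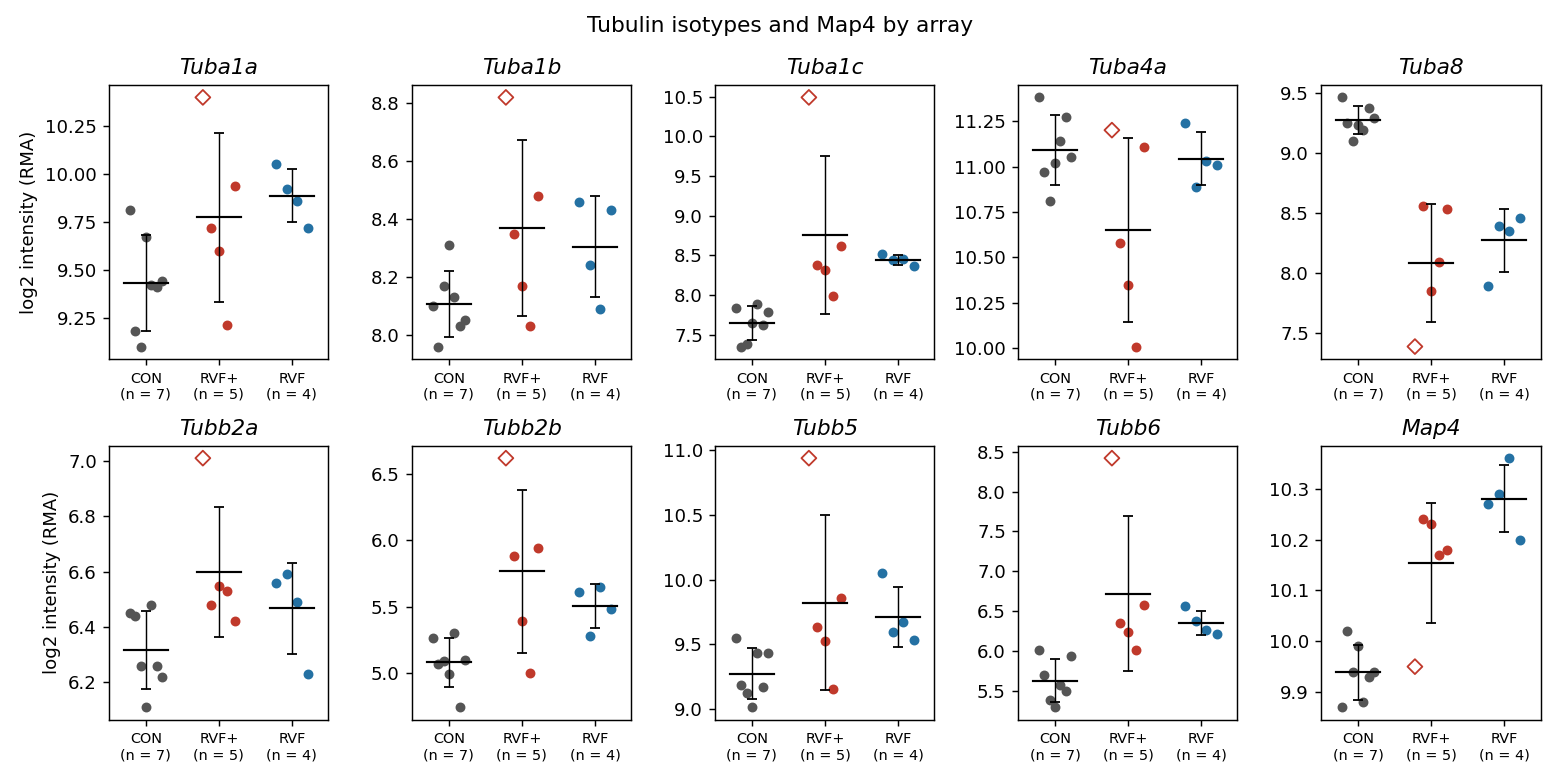
Log2 intensity of the 10 members in each array of CON (n = 7), RVF+ (n = 5) and RVF (n = 4), 1 panel per gene; dots are arrays, the open diamond is RVF+ 8, and line and bars are mean and SD. Tuba1c lies above and Tuba8 below all CON arrays in both groups, and RVF+ 8 is the highest RVF+ array in 8 of the 10 panels.

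All 4 beta-tubulins among the members had a higher mean in RVF+ and in RVF than in CON. With 16 arrays Tubb6 and Tubb2b were called, both in RVF+. Tubb4b, a beta-tubulin outside the members, was named after its values were seen. It differed by -0.16 in RVF+ (limma adjusted p = 0.441) and by 0.01 in RVF (adjusted p = 0.972). Without RVF+ 8 its RVF+ difference was -0.28 (adjusted p = 0.121). Tubb6, a widely expressed isotype that also rises in regenerating and dystrophic skeletal muscle, had the largest difference of the 4. Its CON arrays ranged from 5.29 to 6.01 with a median of 5.57. RVF+ arrays read 8.42, 6.35, 6.23, 6.01 and 6.57, and RVF arrays read 6.56, 6.37, 6.26 and 6.21. Each RVF array lay above all CON arrays, while the lowest RVF+ array did not clear the top of the CON range. Tubb6 rose by 1.09 ± 0.29 (SE; 95% interval 0.47 to 1.71) in RVF+, limma adjusted p = 0.00997. Without RVF+ 8 the rise was 0.67 ± 0.14, or 1.59-fold, adjusted p = 0.00132. The RVF difference of 0.72 was not called over 16 arrays (SE 0.32, adjusted p = 0.131) and was called without RVF+ 8 (SE 0.14, adjusted p = 0.000663).

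Tubb2b, known from the developing cortex, read 4.74 to 5.30 in CON with a median of 5.09. It read 6.62, 5.88, 5.39, 5.00 and 5.94 in RVF+ and 5.61, 5.28, 5.65 and 5.48 in RVF. The fourth RVF+ array and the second RVF array lay within the CON range and the others above it. Tubb2b rose 1.61-fold in RVF+ (log2 0.69 ± 0.19 SE, limma adjusted p = 0.0128) and 1.39-fold without RVF+ 8 (adjusted p = 0.0276). The RVF difference of 0.43 had an adjusted p of 0.179 over 16 arrays and of 0.0471 without RVF+ 8. The CON mean of Tubb2b, 5.08, was under the median level of all genes, 5.57, so its signal was dim.

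Tubb5, the beta-tubulin made in most cells, read 9.01 to 9.55 in CON with a median of 9.18. The RVF+ arrays read 10.94, 9.63, 9.52, 9.15 and 9.86, and the RVF arrays 10.05, 9.59, 9.67 and 9.53. Both RVF+ and RVF overlapped the CON range. The differences of 0.55 ± 0.21 in RVF+ (SE, limma adjusted p = 0.0652) and 0.44 ± 0.23 in RVF (adjusted p = 0.217) were not called. Without RVF+ 8 the RVF difference was called (SE 0.13, adjusted p = 0.0218), while the RVF+ difference shrank to 0.27 (adjusted p = 0.159). Without RVF+ 11, the lowest RVF+ array for Tubb5, and with RVF+ 8 kept, the RVF+ difference was called, adjusted p = 0.0146. Tubb2a, a neighbour of Tubb2b in the genome, read 6.11 to 6.48 in CON with a median of 6.26. It read 7.01, 6.48, 6.55, 6.53 and 6.42 in RVF+ and 6.56, 6.59, 6.49 and 6.23 in RVF, with overlap in both groups. Its differences were 0.28 ± 0.10 (adjusted p = 0.0511) and 0.15 ± 0.11 (adjusted p = 0.406). For Tubb2a in RVF+, 7 alternatives passed the threshold, with adjusted p from 0.0326 to 0.049, while without RVF+ 8 the difference was 0.18 (adjusted p = 0.152). Coding sequences of tubulin isotypes are close to each other, and how far probes of 1 isotype also read another was not tested.

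Map4 had the narrowest spread of the 10 members in CON and in RVF+. CON arrays lay between 9.87 and 10.02, with a median of 9.94. RVF+ arrays read 9.95, 10.24, 10.23, 10.17 and 10.18, and RVF arrays read 10.27, 10.29, 10.36 and 10.20. All arrays but RVF+ 8 exceeded every CON array. The means were 9.94 ± 0.0522 (SD, n = 7), 10.15 ± 0.119 (SD, n = 5) and 10.28 ± 0.068 (SD, n = 4). Map4 rose by 0.21 ± 0.06 (SE; 95% interval 0.08 to 0.35) in RVF+, 1.16-fold, limma adjusted p = 0.0188, and by 0.34 ± 0.07 (95% interval 0.20 to 0.49) in RVF, adjusted p = 0.00222. Without RVF+ 8 the RVF+ rise was 0.27 ± 0.06 with an adjusted p of 0.00282. The size and call of these small rises moved with the scaling of the arrays. With quantile normalisation the Map4 differences were 0.27 in RVF+ (adjusted p = 0.00357) and 0.38 in RVF (adjusted p = 0.000756). With each array centred on its median the differences were 0.12 in RVF+ (adjusted p = 0.275) and 0.26 in RVF (adjusted p = 0.0502), while the median of all genes moved from -0.01 to -0.11 in RVF+ and from -0.01 to -0.09 in RVF. Without RVF+ 9 the RVF+ call of Map4 was lost too, at an adjusted p of 0.0504.

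**Figure D3:**
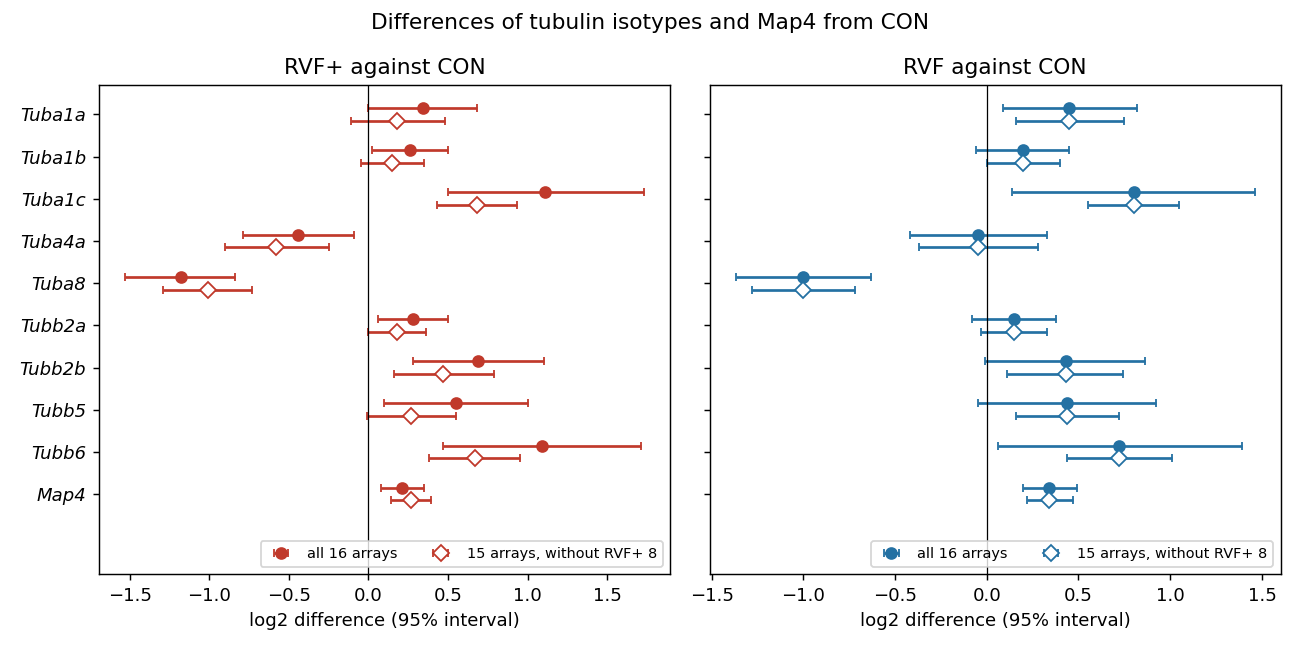
Difference from CON in log2 intensity for each member in RVF+ and RVF, with 95% intervals from the fit; filled points use 16 arrays and open points the 15 without RVF+ 8. Tuba1c (1.11 and 0.80) and Tubb6 (1.09 and 0.72) have the largest positive differences and Tuba8 (-1.18 and -1.0) the largest negative ones, and intervals shorten where RVF+ 8 is left out.

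Counted by overlap, 2 members in RVF+ (Tuba1c and Tuba8) and 4 in RVF (Tuba1c, Tuba8, Tubb6 and Map4) had no array inside the CON range. Among all genes this held for 14.6% in RVF+ (6.96% higher and 7.63% lower) and 18.8% in RVF (9.83% higher and 9% lower). A fit restricted to CON and RVF called the same number of members as leaving out RVF+ 8, 7 of 10, with 25.9% of all genes called (14.1% higher and 11.7% lower). In that fit the limma adjusted p was 6.66e-05 for Tuba1c, 0.000983 for Tubb6, 0.0138 for Tubb5, 0.0139 for Tuba1a, 0.00775 for Tubb2b, 1.03e-05 for Tuba8 and 0.000795 for Map4. Tuba1b, Tuba4a and Tubb2a were not called there, at 0.115, 0.798 and 0.272.

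Between RVF+ and RVF no member was called and no gene of the 17245 passed limma's test (0% called), with 1242 genes at an unadjusted p below 0.05. In the fits that left out 1 array each, 0 to 3 genes were called. RVF+ and RVF overlapped for every member, and 1.74% of all genes did not overlap. The intervals for the members were wide. For Tuba1c the difference, RVF+ minus RVF, was 0.31 (95% interval -0.40 to 1.02), for Tubb6 0.37 (-0.34 to 1.08) and for Tuba8 -0.19 (-0.58 to 0.21). Map4 differed by -0.13 (-0.28 to 0.03). Without RVF+ 8 the uncalled differences changed sign for Tuba1c (-0.12), Tubb6 (-0.06), Tubb5 (-0.17) and Tuba1b (-0.05), and Tuba8 differed by -0.01. Tuba4a had the most negative difference, -0.39 (-0.79 to 0.01), and without RVF+ 8 it was -0.53 (-0.90 to -0.16) with an adjusted p of 0.417. The remaining members differed by -0.11 (Tuba1a), 0.06 (Tuba1b), 0.13 (Tubb2a), 0.26 (Tubb2b) and 0.11 (Tubb5), and each interval included 0.

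Deviations of the arrays from their group means were compared between members. Over 45 pairs of members their correlation had a median of 0.69 across 16 arrays (range -0.80 to 0.96) and of 0.34 across 15 arrays without RVF+ 8 (range -0.46 to 0.87). These points share arrays and normalisation, and the median was lower without that array. Tubb5 and Tubb6 stayed close, at 0.96 and then 0.87, as did Tuba1c and Tuba1a, at 0.82 and then 0.84. Map4 ran opposite to Tuba1c, at -0.80 with RVF+ 8 and -0.29 without. RVF+ 8 exceeded the CON mean by 2.84 for Tuba1c, 2.79 for Tubb6, 1.67 for Tubb5 and 1.54 for Tubb2b, but by 0.11 for Tuba4a and 0.01 for Map4, and lay 1.87 below it for Tuba8 (-1.87). RVF+ 11, which had the lowest summed dividing-cell markers of the RVF+ arrays (354), was the lowest RVF+ array for 7 of the 10 members.

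The genes whose levels above the CON mean followed a member most closely were sought among the 8622 genes at or above the median level, by root mean square difference over 16 arrays. For Tuba1c they were Nckap1l (0.148), Nipsnap3b (0.166), Tubb6 (0.172), Pld4 (0.174) and the leukocyte integrin Itgb2 (0.18). For Tuba8 they were Fitm1 (0.158), Fam131c (0.179), Agpat3 (0.179), Asb15 (0.18) and Mtfp1 (0.194). For Map4, whose differences were small, they were the spectrin gene Sptbn1 (0.0738), Pcnx1 (0.0801), Cilk1 (0.0807), Tnks1bp1 (0.0827) and Creb3l2 (0.0827). These are descriptions of likeness in the same arrays. The 16 arrays include RVF+ 8, which lay 2.84 above the CON mean for Tuba1c, and likeness without that array was not computed.

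Of the other tubulins, 1 of 9 measured genes was higher and 1 lower in RVF+, with a median of 0.02, and 1 was higher and none lower in RVF, a count that ran from 0 to 2 over the alternatives. For each list the share of all genes called, 27.7% in RVF+ and 17.1% in RVF, is the background, and this share is higher among brighter genes. The lists too were chosen with earlier results of these data known. Tubb3, the beta-tubulin best known from neurons, rose by 0.74 ± 0.22 (SE, limma adjusted p = 0.0173) in RVF+ and by 0.74 ± 0.24 (adjusted p = 0.0394) in RVF. The Tubb3 difference in RVF+ was 0.46 without RVF+ 8 (adjusted p = 0.021). Summed neuron and Schwann cell markers were 176 to 197 for CON arrays, 206 to 247 for RVF+ and 228 to 271 for RVF, and their part in the Tubb3 values was not tested. The RVF call of Tubb3 was lost in some alternatives, with adjusted p up to 0.0974. The CON mean of Tubb3, 4.47, was under the median level of all genes, 5.57, so its signal was dim. Tubg1, the gamma-tubulin that starts new microtubules, fell by 0.34 ± 0.10 in RVF+ (adjusted p = 0.0166, up to 0.0516 without 1 array) and differed by -0.21 in RVF (adjusted p = 0.202).

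Of 20 genes for tubulin folding and tubulin mRNA control, 3 were higher and 2 lower in RVF+ (25%), with a median of 0.04, and 3 were higher and 1 lower in RVF (20%), the same counts as without RVF+ 8. Tbcb and Tbce, cofactors that handle alpha-tubulin, rose in both groups. Tbcb rose by 0.57 ± 0.17 (SE, limma adjusted p = 0.0157, but 0.0571 with array weights) in RVF+ and 0.72 ± 0.18 (adjusted p = 0.00871) in RVF, and Tbce by 0.28 and 0.25 (adjusted p = 0.003 and 0.018, the latter up to 0.121 in alternatives). The prefoldin subunits, which pass new tubulin to the chaperonin, were split. Pfdn1 rose by 0.51 and 0.61 (adjusted p = 0.00201 and 0.00138), and Pfdn6 fell by 0.63 and 0.46 (adjusted p = 4.62e-06 and 0.000271). Arl2, a small GTPase that works with the cofactors, fell by 0.40 in RVF+ (adjusted p = 0.0106) and differed by -0.14 in RVF (adjusted p = 0.46).

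Of 19 tubulin-modifying enzymes, 2 were higher and 2 lower in RVF+ (21.1%), and 4 were higher in RVF (21.1%), near the shares of all genes. The RVF count ran from 2 to 6 when 1 array was left out and reached 8 in other settings, and without RVF+ 8 it was 4 higher and 1 lower. In RVF+ there were 2 higher and 1 lower without RVF+ 8. Vash2, a vasohibin that removes the terminal tyrosine of alpha-tubulin, rose 2.18-fold in RVF+ (log2 1.13 ± 0.21 SE, limma adjusted p = 0.000694), where 4 of 5 arrays lay above all CON arrays. In RVF the rise was 1.59 ± 0.23 (adjusted p = 0.0001), with 4 of 4 arrays above CON. The CON mean of Vash2, 4.11, was under the median level of all genes, 5.57, so its signal was dim. Over the other settings its difference ran from 0.71 to 1.27 in RVF+ and from 1.02 to 1.62 in RVF. Its relative Vash1 differed by 0.07 and 0.13 (adjusted p = 0.648 and 0.434), and Ttl, which puts the tyrosine back, by 0.05 and 0.24 (adjusted p = 0.75 and 0.0977). Vash1 and Ttl were named after their values were seen. Ttll7, which adds glutamate chains to tubulin, rose by 0.39 and 0.58 (adjusted p = 0.00921 and 0.00134), although with median centring the RVF+ call was lost (adjusted p = 0.0583). Agtpbp1, which removes glutamates, fell by 0.41 in RVF+ (adjusted p = 0.0126) and by 0.27 there without RVF+ 8 (adjusted p = 0.0201). In RVF the Agtpbp1 difference was -0.27 (adjusted p = 0.145, and 0.0199 without RVF+ 8). Agbl5 fell by 0.24 in RVF+ (adjusted p = 0.0207, but 0.0532 without RVF+ 8). The CON mean of Agbl5, 4.90, was also under the median level of all genes. Hdac6, a tubulin deacetylase, rose by 0.44 ± 0.14 in RVF (adjusted p = 0.0383, up to 0.109 in alternatives) and differed by 0.27 ± 0.13 in RVF+ (adjusted p = 0.138). Ttll1 was the fourth enzyme called in RVF, at 0.27 ± 0.08 (adjusted p = 0.0295, up to 0.141).

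Microtubule-associated and plus-end proteins formed the longest of the 7 lists, with 7 higher and 6 lower of 27 in RVF+ (48.1%) and 6 higher and 2 lower in RVF (29.6%), with medians of 0.03 and 0.06. The counts without RVF+ 8 were 6 higher and 6 lower in RVF+, and 7 higher and 4 lower in RVF. Map1b, a protein known from growing axons, rose 2.02-fold in RVF+ (log2 1.02 ± 0.08 SE, limma adjusted p = 6.42e-07) and 2.22-fold in RVF (1.15 ± 0.09, adjusted p = 4.57e-07). Its relative Map1a rose by 0.41 (adjusted p = 0.000944) and 0.73 (adjusted p = 1.55e-05). Map6, which protects stable microtubules, rose by 0.50 and 0.56 (adjusted p = 0.000382 and 0.000431). In the other direction, Map7, which recruits kinesin-1, fell by 0.93 and 0.67 (adjusted p = 1.91e-05 and 0.00115). The plus-end stabiliser Clasp2 fell by 0.40 and 0.41 (adjusted p = 0.000283 and 0.000662). Map7d1 fell by 0.38 in RVF+ (adjusted p = 0.000534), and its RVF difference of -0.22 had an adjusted p of 0.0506 (0.0309 without RVF+ 8).

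Of 10 destabilisers and severers, 3 were higher and 1 lower in RVF+ (40%), and 1 was higher and 1 lower in RVF (20%). Without RVF+ 8 there were 2 higher and 1 lower in RVF+ and 3 higher and 1 lower in RVF, and the RVF count ran from 1 to 4 over the alternatives. The severing enzyme Fign was 2.42-fold lower in RVF+ (log2 -1.27 ± 0.14 SE, limma adjusted p = 6.75e-06) and 2.11-fold lower in RVF (adjusted p = 9.25e-05). Stmn1, which sequesters tubulin pairs, rose by 0.69 ± 0.17 in RVF+ (adjusted p = 0.00458) and differed by 0.50 in RVF (adjusted p = 0.0628, and 0.00678 without RVF+ 8). Katna1, the katanin blade, rose by 0.30 and 0.31 (adjusted p = 0.0252 and 0.039), but the RVF+ value was 0.0714 without RVF+ 8 and the RVF value reached 0.105 in alternatives. Fignl1 rose by 0.43 in RVF+ (adjusted p = 0.00628) and differed by 0.30 in RVF (adjusted p = 0.0905, and 0.0328 without RVF+ 8). The CON means of Katna1, 5.08, and Fignl1, 3.96, were under the median level of all genes, 5.57.

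Of 19 microtubule motor genes 4 were higher and 3 lower in RVF+ (36.8%), against 8 higher and none lower in RVF (42.1%, median 0.18). The RVF count was 4 without RVF 13 and 4 with median centring, and 8 without RVF+ 8. In RVF+ there were 4 higher and 2 lower without RVF+ 8. Kif5b, the heavy chain of kinesin-1, rose by 0.38 and 0.60 (limma adjusted p = 0.0027 and 0.000198). The dynein chains Dync1li1 (0.31 and 0.59, adjusted p = 0.00518 and 8.94e-05) and Dynll1 (0.52 and 0.52, adjusted p = 0.00328 and 0.00833) rose in both groups, as did the kinesin-2 subunit Kif3b (0.29 and 0.34, adjusted p = 0.00448 and 0.0042). Kif21a fell by 0.50 in RVF+ (adjusted p = 0.00261) and differed by -0.23 in RVF (adjusted p = 0.207). Of 12 genes of the desmin network and its anchors, 3 were higher and 3 lower in RVF+ (50%), and 4 were higher in RVF (33.3%). In RVF there were 5 higher and 2 lower without RVF+ 8, and without 1 array the RVF total ran from 3 to 7. Synemin (Synm), a partner of desmin, rose by 0.84 and 1.11 (adjusted p = 0.000513 and 0.000131), vimentin (Vim) by 0.52 and 0.38 (adjusted p = 8.57e-05 and 0.00355) and lamin A (Lmna) by 0.46 and 0.46 (adjusted p = 0.000612 and 0.00211). Desmin itself (Des), named after its values were seen, differed by 0.09 and 0.14 (adjusted p = 0.339 and 0.168). Dystrophin (Dmd) fell by 0.62 and dystrobrevin (Dtna) by 0.34 in RVF+ (adjusted p = 0.000523 and 0.00359). In RVF the Dmd difference was -0.31 with all 4 arrays below CON (adjusted p = 0.0857, and 0.0292 without RVF+ 8), and the Dtna difference was -0.20 (adjusted p = 0.124).

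**Figure D4:**
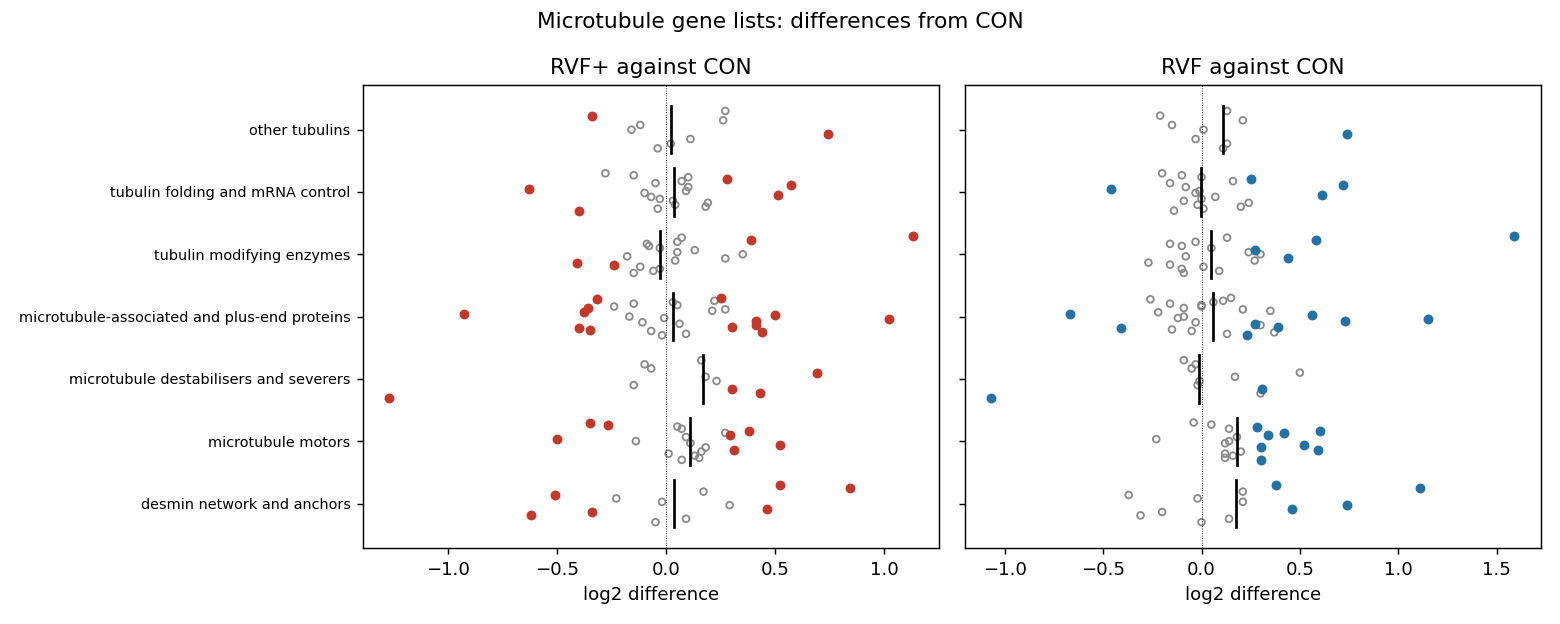
Difference from CON in log2 intensity for the genes of 7 microtubule and desmin-network lists in RVF+ and RVF. Each dot is a gene, filled where called, and the black bar is the list's median. List medians lie between -0.03 and 0.18. Called genes lie on both sides of 0 in all 7 lists in RVF+ and in 3 of 7 in RVF.

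None of the 7 lists had a gene called between RVF+ and RVF. The nearest were Map1a and the motor gene Klc2, the latter named after its values were seen, both at a limma adjusted p of 0.403. Map1a had a mean of 7.33 in RVF+ and 7.65 in RVF, a difference of -0.33, and Klc2 differed by -0.31. Beside these lists, markers of other cells moved too. Against 14.1% of all genes higher and 13.6% lower in RVF+, 13 of 14 dividing-cell genes, 10 of 12 macrophage genes and 9 of 12 fibroblast genes were higher, and 7 of 14 ventricular cardiomyocyte genes were lower and 1 higher. In RVF these lists had 6, 7 and 8 genes higher, and the ventricular list 1 lower and 1 higher; without RVF+ 8 they had 13, 11 and 9 higher, and 4 lower and 1 higher. In RVF+ and RVF, 3 and 5 of 10 neuron and Schwann cell genes, 4 and 3 of 10 smooth muscle and pericyte genes and 2 and 0 of 10 endothelial genes were higher. Of 9 atrial genes 3 were higher and 1 lower in RVF+, and 1 higher and 2 lower in RVF. Their sum was 1200 to 3370 for CON, 4030 to 5690 for RVF+ and 5520 to 7140 for RVF arrays. The median log2 difference of these 9 genes was -0.054 in RVF+ and 0.025 in RVF, so the higher sums were not a rise across the list. Mki67, a marker of dividing cells, rose by 1.76 ± 0.37 (adjusted p = 0.00161) and 1.40 ± 0.39 (adjusted p = 0.0192; 0.0506 at most when 1 array was left out). Summed fibroblast markers were 8350 to 9810 for CON arrays, 11200 to 12700 for RVF+ arrays and 10800 to 12700 for RVF arrays. The part of these markers in the list counts was not tested.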

How the data were processed

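Arrays were hybridised with sense-strand target made from 500 ng total RNA, per the labels' protocols. The deposited table holds 1 intensity per probe set and array on a linear scale, summarised by the authors with RMA, per the submitters' processing notes (software version, genome build and array layout not given in the sources used here). Values ran from 2.202 to 10293.5 and were taken to log2 without further normalisation. Of 29214 probe sets, 18644 had 1 symbol, 962 had several and 9608 were unlisted; 18460 matched RefSeq GRCr8 and no symbol changed. The probe set with the highest mean stood for each of 879 genes with more than 1. The 17245 genes were fitted with limma 3.58.1 (R 4.3.3), 3 group means and no covariate, with Benjamini-Hochberg adjustment over all genes. The number of arrays limits the precision. Alternatives were other scalings, filters on dim genes, other moderation, array weights, the 2 groups alone and each array left out. Leaving out RVF+ 8 beside the list counts was chosen after seeing the data. The fit was also run on simulated data with known changes and independent noise. Those data held no outlying array, so that run does not bear on how RVF+ 8 moves the calls. Members and gene lists were chosen with earlier results of these data known. All members are named. Genes that could be named were the 5 of smallest p per list and comparison, the 3 brightest and 3 smallest-p markers of each marker list, and the 5 genes most like each of 3 members.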

Additional observations from a re-analysis of the deposited data

Results flagged for a closer look

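Within groups of 4 to 10 arrays, the gap between the outermost array and its neighbour was compared with the group's range by Dixon's criterion at 95%, for 30 groups (10 members in 3 groups). It was exceeded in 4, all by the same array, RVF+ 8, where chance gives about 1 in 20. That array read 10.49 for Tuba1c, with the next RVF+ array at 8.62. For Tubb6 it read 8.42 against 6.57. Its Tubb2a reading was 7.01 against 6.55. It was the lowest RVF+ array for Map4, at 9.95, with the next at 10.17. The same array had the highest summed macrophage (7500) and dividing-cell (2520) markers and the lowest summed ventricular cardiomyocyte markers (33700) of the 5 RVF+ arrays, and their part in these readings was not tested.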

How the results depend on the processing

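No paired analysis was possible because the labels give no pairing of samples. No member changed the sign of a called difference under any alternative run. The members called between RVF and CON numbered 2, but 1 with median centring, 7 with only the 2 groups in the fit, 7 with array weights and 2 to 7 when 1 array was left out, with 7 without RVF+ 8. The genes called there numbered 2957, then 4466 with only the 2 groups and 4688 with array weights, and 2063 to 4247 when 1 array was left out. Between RVF+ and CON the members called were 5, or 5 to 7 over the other settings and 4 to 8 without 1 array, with 8 without RVF+ 11. Genes called there ran from 3924 to 5334 over settings and from 4288 to 4993 without 1 array. Between RVF+ and RVF no member was called under any alternative, and 0 to 3 genes were. Median centring moved the share of higher genes among those called from 50.8% to 32.9% in RVF+ and from 51.7% to 34% in RVF. Arrays give no read depth, and their number limits the precision.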
